A study of Mus musculus with 8 samples.

Results

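DNA methylation is written and erased by a small group of enzymes and their recruiters, and 8 of their genes were followed here in mouse colonic epithelial cells: Dnmt1, Dnmt3a, Dnmt3b, Uhrf1, Hells, Tet1, Tet2 and Tet3. They were taken by gene symbol from a table of 35963 symbols, and all 8 were found. The libraries came from the proximal colon of mice aged 4 weeks. In 4 libraries, labelled Ccna2-KO and called KO-labelled below, the mice carried Ccna2 alleles flanked by loxP sites (Ccna2 fl/fl) together with vil-Cre, a Cre recombinase under the villin promoter of the intestinal epithelium. The other 4 libraries, labelled WT, came from Ccna2 fl/fl mice for which no Cre is named, so the floxed allele was shared by both groups and these libraries are called controls. The Ccna2 product, cyclin A2, activates CDK2 and CDK1 from S phase to the start of mitosis, and the comparison asks how transcripts differ when it is targeted in the epithelium. The labels leave it unsaid whether the libraries are from separate mice, and p-values therefore measure only the spread between them. The labels used here name no strain or sex.

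Methyl groups on cytosines in CG dinucleotides have to be restored after each round of replication, because the new strand is made unmethylated. DNMT1 does this at the replication fork, where UHRF1 recognises the half-methylated site and recruits it, and HELLS, a chromatin remodelling ATPase also called LSH, helps the machinery reach packed chromatin. DNMT3A and DNMT3B set new methylation, and TET1, TET2 and TET3 oxidise 5-methylcytosine to 5-hydroxymethylcytosine, the first step of its removal. In the intestine the maintenance genes are known to be highest in the dividing cells of the crypt.

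The promoters of these genes are shown first. Many genes of S phase are driven by E2F transcription factors, and any part of E2F in the levels below was not tested. RefSeq windows (GRCm38.p6) of 300 bases, from 250 before to 50 after each start, were available for all 8 genes, 13 windows in all, since 3 genes have more than 1 start. They were searched on both strands for an E2F element spelled TTTCCCGC, TTTCGCGC, TTTGCCGC or TTTGGCGC, spellings that do not overlap any other motif searched. Such letters stood in 3 of the 13 windows (23.1%), 1 each for Dnmt1, Uhrf1 and Hells, against 744 of all 32851 windows (2.26%) 3 of 12 windows (25%) of a list of S phase genes and 4 of 6 windows (66.7%) of the replication helicase genes Mcm2 to Mcm7. The windows of these 8 genes were also richer in CG, with a median of 30 CG dinucleotides against 7 over all windows, and each spelling itself holds a CG. No background of equal CG content was searched. None of the spellings stood in the windows of Dnmt3a, Dnmt3b, Tet1, Tet2 or Tet3, which held between 17 and 57 CG dinucleotides. Below, each sequence runs 5′ to 3′ on the strand of its gene, with the element in capitals. For Dnmt1 and Hells only 30 bases around the element are given, because in GENCODE M21 it lies in the untranslated part of the first exon of Dnmt1-201 and of Hells-201. For Uhrf1 the 250 bases before the second start are given, which hold no annotated exon.
Uhrf1, chr17:56304063-56304312, plus strand: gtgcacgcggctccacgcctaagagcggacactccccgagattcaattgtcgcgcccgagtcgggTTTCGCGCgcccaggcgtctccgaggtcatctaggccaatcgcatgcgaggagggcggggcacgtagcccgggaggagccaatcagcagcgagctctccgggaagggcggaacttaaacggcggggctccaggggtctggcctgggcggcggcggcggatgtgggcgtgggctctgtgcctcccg
Hells, chr19:38930917-38930946, plus strand: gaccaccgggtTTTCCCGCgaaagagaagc
Dnmt1, chr9:20952824-20952853, minus strand: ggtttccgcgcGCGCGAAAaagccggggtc
The Uhrf1 element began 185 bases before the second start and the Hells element 62 bases before the start used for its window. That Hells window runs from 38930740, after the first base of the gene at 38930262, so its element lies inside the gene. The Dnmt1 element is read on the opposite strand to the gene and began 219 bases before the most downstream of its 3 RefSeq starts. The same Dnmt1 window held a second element, TTTGGCGC, 34 bases after the start. No binding was measured, so a match describes letters only.

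Several facts of the whole series bear on every value below. Gene totals ranged from 25960180 to 33028486 estimated counts per library, and levels are given as CPM, the count scaled to library size with TMM factors. Ccna2 itself gave no separation of the groups: its level was 54.3, 25.9, 11.9 and 18.3 CPM in controls 1 to 4 and 18.2, 26.6, 26.6 and 16.2 CPM in the KO-labelled libraries. Its log2 fold change was -0.33 ± 0.41 SE (edgeR quasi-likelihood test, adjusted p = 0.673). It was 0.24 without control replicate 1 and -0.71 ± 0.30 (edgeR adjusted p = 0.133) with the library number set, described next, as a covariate. The labels do not name the deleted exons, so directions rest on the group labels. The library numbers in the labels form a low set (595 to 598, controls 2 to 4 and Ccna2-KO replicate 4) and a high set (621 to 641, control 1 and Ccna2-KO replicates 1 to 3), and what they number is not stated. Control 1 stood apart from the other controls. The 8 genes and the counts over lists are also given without it and with the number set as a covariate (set-adjusted), and the ratios within a library only without it. Because each set holds a single library of 1 group, a set effect and an effect of control 1 or of Ccna2-KO replicate 4 cannot be told apart. Without control 1, all remaining controls are in the low set and most KO-labelled libraries in the high set. Every value given without control 1 therefore mixes genotype with number set. With genotype, 12.1% of the 15893 genes tested passed an adjusted p of 0.05, 6.4% with higher and 5.71% with lower levels under the Ccna2-KO label.

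Among the 8 genes, 1 fell (Tet1), 0 rose and 7 did not pass, beside those shares over all genes. All 8 passed the filter on low counts, Tet1 through its higher group, as 10 counts or more were reached in only 5 libraries, the 4 controls and Ccna2-KO replicate 3. Dnmt1, Uhrf1 and Hells each had an unadjusted p under 0.05 and no call in edgeR's test. The share of all genes with an unadjusted p under 0.05 is not given here. DESeq2 called all 3, where it called 18.6% of all genes. Limma voom called Uhrf1 and Hells, where it called 12.1% of all genes. The median log2 fold change of the 8 genes was 0.02, against -0.01 over all genes tested. The groups did not overlap for Tet1 and overlapped for the other 7 genes, while 19% of all genes did not overlap, 9.6% wholly lower and 9.41% wholly higher under the Ccna2-KO label.

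**Figure D1:**
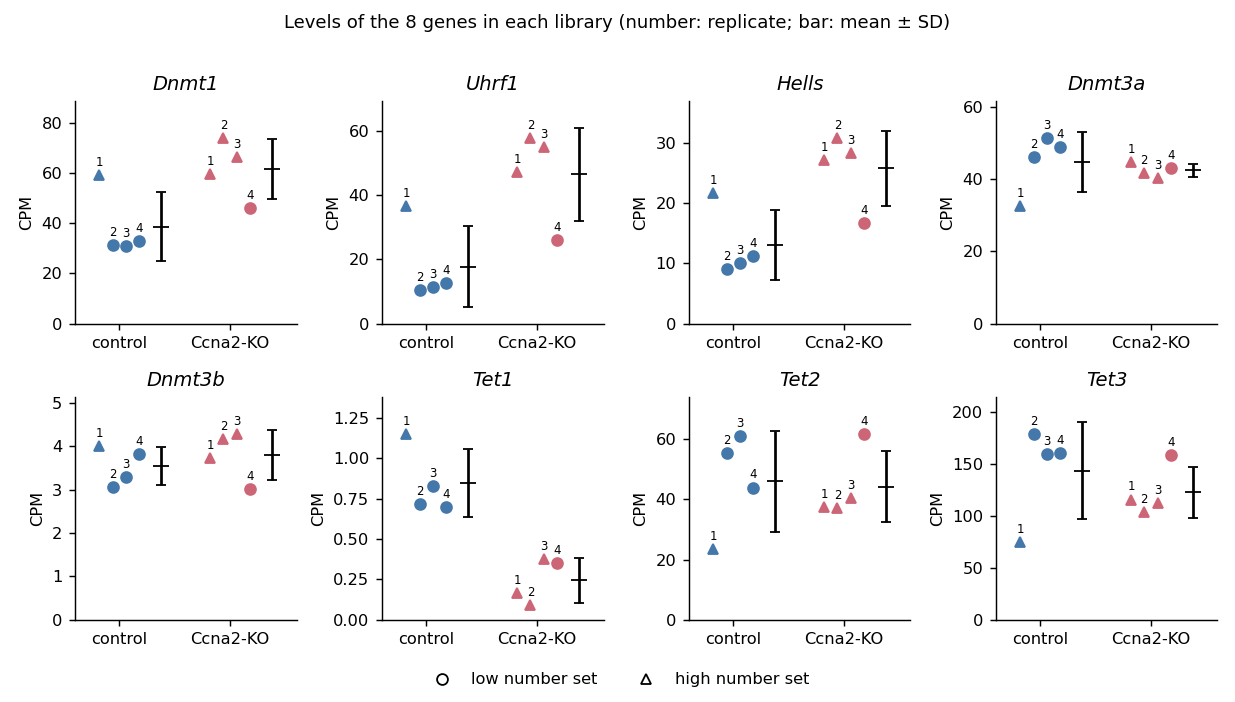
Level of each of the 8 genes in every library, in CPM on axes that start at 0, with the replicate number above each point, circles for the low number set, triangles for the high set, and a bar for the group mean ± SD (n = 4). For Dnmt1, Uhrf1 and Hells control 1 sits above the other controls and Ccna2-KO replicate 4 below its group, and for Tet1 the groups do not overlap (0.697 to 1.15 against 0.0899 to 0.374 CPM).

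Uhrf1, the recruiter of DNMT1, had the widest spread of the 3 maintenance genes. It lies on chromosome 17, 56303337 to 56323486 (GRCm38, plus strand). Its level was 36.6, 10.4, 11.4 and 12.6 CPM in controls 1 to 4 and 47.2, 57.9, 55.1 and 26.0 CPM in Ccna2-KO replicates 1 to 4. Control 1 lay above Ccna2-KO replicate 4, and apart from that pair all KO-labelled libraries were above all controls. The means were 17.7 ± 12.6 and 46.6 ± 14.4 CPM (SD, n = 4 each), a ratio of 2.63 with a 95% interval of 1.35 to 5.10. The log2 fold change was 1.39 ± 0.43 (SE) and missed the threshold over all genes (edgeR adjusted p = 0.0643). On log2 CPM the exact permutation p was 0.0571 (two-sided), and 4 against 4 cannot go below 0.0286. Without control 1 the log2 fold change was 2.02 (edgeR adjusted p = 0.00106), and set-adjusted it was 0.86 ± 0.15 (edgeR adjusted p = 0.0048).

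Hells, the remodelling ATPase, followed the same order of libraries with a smaller range. The gene lies on chromosome 19, 38930262 to 38970470 (plus strand). Controls 1 to 4 held 21.6, 9.02, 10.1 and 11.2 CPM and Ccna2-KO replicates 1 to 4 held 27.2, 30.8, 28.3 and 16.7 CPM. Control 1 again exceeded Ccna2-KO replicate 4, which in turn exceeded the other 3 controls. The means of 13 ± 5.8 and 25.8 ± 6.24 CPM gave a ratio of 1.99 (95% interval 1.25 to 3.15). This was a log2 fold change of 0.99 ± 0.30 (SE; edgeR adjusted p = 0.059; exact two-sided permutation p = 0.0571). It passed without control 1 (1.35, edgeR adjusted p = 0.00145), without Ccna2-KO replicate 4 (1.15, edgeR adjusted p = 0.0398) and set-adjusted (0.57 ± 0.12, edgeR adjusted p = 0.0125).

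Dnmt1, the maintenance methyltransferase itself, showed the smallest difference of the 3. It lies on chromosome 9, 20907206 to 20959888 (minus strand). Its level was 59.1, 31.3, 31.0 and 32.7 CPM in controls 1 to 4 and 59.4, 73.9, 66.3 and 45.9 CPM in Ccna2-KO replicates 1 to 4. Control 1 lay beside Ccna2-KO replicate 1 and above replicate 4, and the other 3 controls lay below all other libraries. The means were 38.5 ± 13.7 and 61.4 ± 11.9 CPM, a ratio of 1.59 (95% interval 1.11 to 2.29). Its log2 fold change was 0.67 ± 0.23 (with its SE; edgeR adjusted p = 0.0973; exact two-sided permutation p = 0.0571). It was 0.96 without control 1 (edgeR adjusted p = 0.00153) and 0.35 ± 0.11 set-adjusted (edgeR adjusted p = 0.0532).

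The 3 maintenance genes also differed between the number sets. With genotype in the fit they were higher in the high set, by 0.72 for Dnmt1 (edgeR adjusted p = 0.00662), 1.35 for Uhrf1 (edgeR adjusted p = 0.00477) and 0.94 for Hells (edgeR adjusted p = 0.00483) on the log2 scale, where 22.3% of all genes differed. Within each set the KO-labelled libraries were higher for all 3, with 1 library on one side and therefore no test. In the low set the log2 difference, Ccna2-KO replicate 4 minus the mean of controls 2 to 4, was 0.54 for Dnmt1, 1.18 for Uhrf1 and 0.73 for Hells. In the high set, Ccna2-KO replicates 1 to 3 minus control 1, it was 0.17, 0.54 and 0.41 in the same order. Without control 1, a fit that mixes genotype with set, 3 of the 8 genes were higher and 2 lower. In that fit 28.5% of all genes passed, 15.1% higher and 13.4% lower. Set-adjusted, 2 were higher and 1 lower, where 18.2% passed, 9.29% higher and 8.9% lower.

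**Figure D2:**
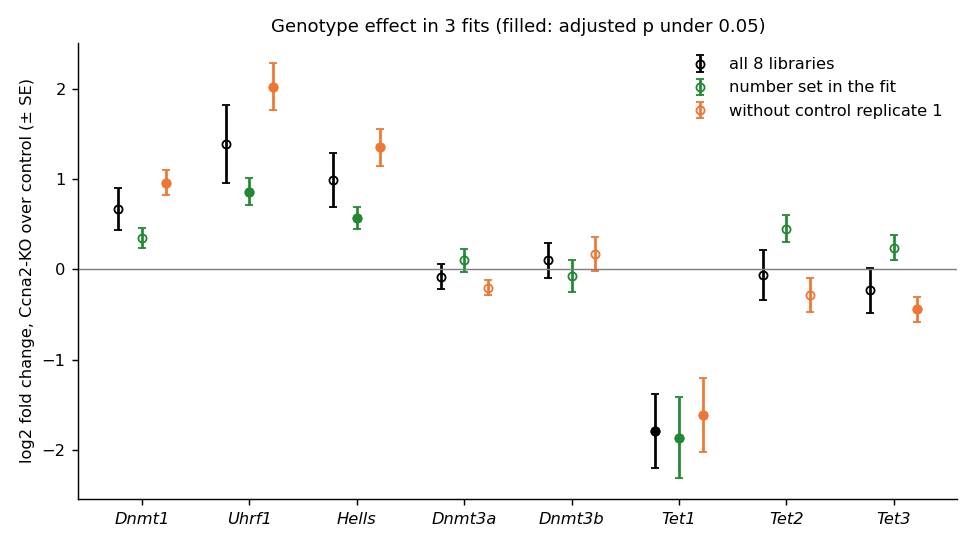
Log2 fold change, Ccna2-KO over control, of the 8 genes with its SE in 3 fits, all 8 libraries, with a term for the number set, and without control replicate 1, filled where the edgeR adjusted p is under 0.05. Tet1 is filled in all 3 fits, while Uhrf1 and Hells are filled in the other 2 fits, and Dnmt1 and Tet3 without control 1.

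Maintenance genes are normally expressed in S phase, so their levels were set against those of Mcm2 to Mcm7, the 6 subunits of the replicative helicase. Differences of log2 CPM within a library do not depend on the scaling between libraries. Uhrf1 minus the mean of the 6 Mcm genes was -0.26, -0.34, -0.17 and -0.27 in controls 1 to 4 and 0.40, 0.33, 0.37 and 0.11 in Ccna2-KO replicates 1 to 4. The groups did not overlap, and control 1 lay among the other controls on this measure. The mean difference was 0.56 (exact two-sided permutation p = 0.0286, and 0.143 adjusted over the 5 ratios tested). Without control 1 it was again 0.56.

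Hells minus the Mcm mean was -1.02, -0.55, -0.35 and -0.44 in the controls and -0.40, -0.58, -0.59 and -0.53 in the KO-labelled libraries. The groups overlapped and differed by 0.06 (exact permutation p = 0.83). Dnmt1 minus the Mcm mean was 0.43, 1.24, 1.27 and 1.10 in the controls and 0.73, 0.68, 0.64 and 0.92 in the KO-labelled libraries. Here control 1 was the lowest of all libraries and the other controls the highest, and the difference was -0.27 (exact permutation p = 0.229, adjusted 0.381). Uhrf1 minus Dnmt1, the recruiter against the enzyme, was -0.69, -1.58, -1.44 and -1.37 in the controls and -0.33, -0.35, -0.27 and -0.82 in the KO-labelled libraries. Control 1 lay above Ccna2-KO replicate 4, and the mean difference was 0.83 (exact permutation p = 0.0571, adjusted 0.143). With control 1 left out, the exact permutation test gave an adjusted p of 0.0476 for Uhrf1 minus the Mcm mean, Uhrf1 minus Dnmt1 (1.02) and Dnmt1 minus the Mcm mean (-0.46). Each of these stood at the lowest unadjusted p that the remaining libraries allow. They share genes, so they are not separate results.

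**Figure D3:**
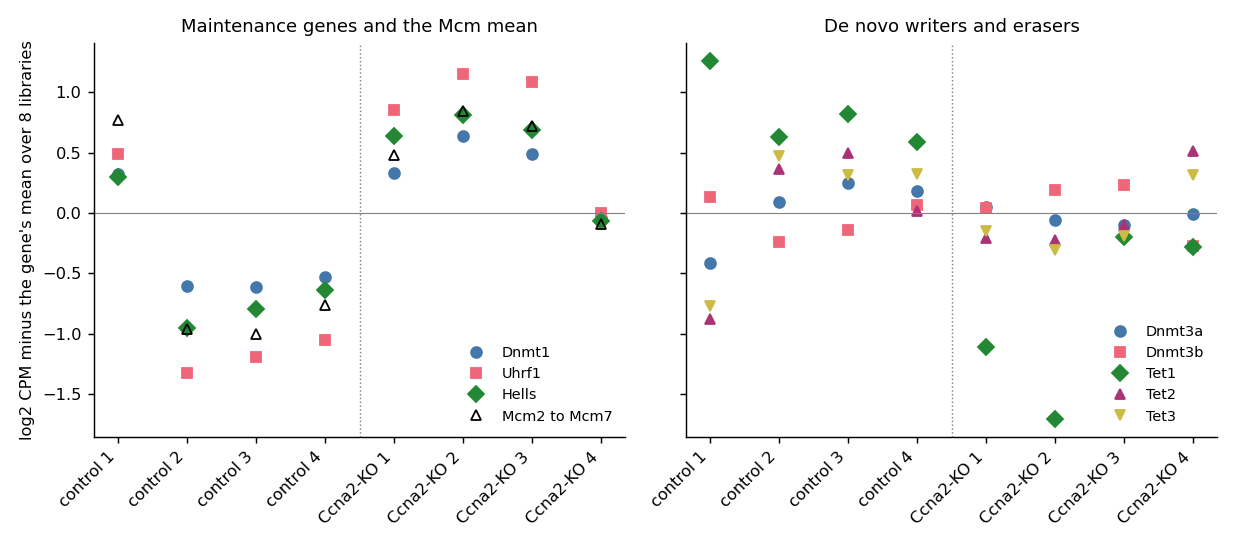
Log2 CPM of each gene minus its mean over the 8 libraries, for the maintenance genes and the mean of Mcm2 to Mcm7 (left) and for the other 5 genes (right), with the libraries on the horizontal axis and a dotted line between the groups. Uhrf1 is below the Mcm mean in the 4 controls and above it in the 4 KO-labelled libraries, and Tet1 is above 0 in the 4 controls and below 0 in the other 4 libraries.

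The de novo methyltransferases did not differ with genotype beyond the spread between libraries. Dnmt3a lies on chromosome 12, 3801559 to 3914443 (plus strand), and held 32.6, 46.1, 51.5 and 49.0 CPM in controls 1 to 4 and 44.7, 41.7, 40.5 and 43.1 CPM in Ccna2-KO replicates 1 to 4. Control 1 was the lowest and the other 3 controls the highest libraries, with the KO-labelled libraries close together in between. Dnmt3a had a log2 fold change of -0.08 ± 0.14 (SE; edgeR adjusted p = 0.787), a ratio of 0.948 with a 95% interval of 0.763 to 1.18. It was -0.20 without control 1 (edgeR adjusted p = 0.0748) and 0.10 set-adjusted.

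Dnmt3b, known mainly from embryonic cells, was measured from few counts. It lies on chromosome 2, 153649411 to 153687730 (plus strand), and held 4.01, 3.07, 3.29 and 3.82 CPM in the controls and 3.74, 4.17, 4.28 and 3.02 CPM in the KO-labelled libraries. The groups overlapped throughout. Dnmt3b had a log2 fold change of 0.10 ± 0.19 (SE; edgeR adjusted p = 0.792), a ratio of 1.07 (95% interval 0.8 to 1.44). It was 0.17 without control 1 and -0.07 set-adjusted. Dnmt3b minus Dnmt3a on the log2 scale was -3.62 ± 0.43 in the controls and -3.47 ± 0.27 in the KO-labelled libraries (SD, n = 4 each; exact permutation p = 0.571, adjusted 0.714).

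Tet1, the least abundant of the oxidases, was called lower in edgeR's test, from few counts. It lies on chromosome 10, 62804570 to 62887469 (minus strand). The controls held 33, 18, 27 and 23 estimated counts and the KO-labelled libraries held 5, 3, 12 and 9, or 1.15, 0.718, 0.83 and 0.697 CPM against 0.168, 0.0899, 0.374 and 0.353 CPM. Every control lay above every library labelled Ccna2-KO, and control 1 was the highest. The means were 0.849 ± 0.209 and 0.246 ± 0.139 CPM (SD, n = 4 each), a ratio of 0.29 (95% interval 0.153 to 0.551). On the log2 scale the difference was -1.79 ± 0.41 (SE; edgeR adjusted p = 0.0226), and the exact permutation p was 0.0286 (two-sided), the lowest possible. Without control 1 it was -1.61 (edgeR adjusted p = 0.0176). Set-adjusted it was -1.86 ± 0.45 (edgeR adjusted p = 0.021), and the set itself made a difference of 0.15 (edgeR adjusted p = 0.823).

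Tet1 passed the main filter through the controls, and with a filter of at least 1 CPM in 4 libraries it was not tested. The Tet1 call rests on few counts. It was lost without control replicate 3 (edgeR adjusted p = 0.0528), Ccna2-KO replicate 1 (0.0775) or Ccna2-KO replicate 2 (0.054), with the log2 fold change between -1.80 and -1.49 in these 3 fits. Markers of T cells, which can be released with the epithelium, moved the same way: all 11 of the 12 listed genes that the table held fell in edgeR's test, with a median of -2.84. All 11 were also lower without control 1 and in DESeq2, 9 were in limma voom and 8 set-adjusted. Their summed level was 41.4 to 207 CPM in the controls and 11.1 to 25.6 CPM in the KO-labelled libraries. None of the 11 was at 0 in any library, but Cd2 was near it, with 8 counts over the KO-labelled libraries against 64 over the controls. Control 1 held the lowest T cell sum of the controls and the highest Tet1 level. The 3 genes with profiles most like that of Tet1 also fell, a direction that the search for likeness favours, and that search left out genes as low as Tet1. They were Chgb, a secretory granule protein of enteroendocrine cells (95 ± 15.6 and 22.7 ± 5.02 CPM), and Lrmp (6.15 ± 2.58 and 1.63 ± 0.282 CPM) and Sh2d6 (8.52 ± 1.5 and 3.41 ± 0.823 CPM), both known from tuft cells. Their log2 fold changes were -2.07, -1.91 and -1.32 (edgeR adjusted p = 0.000352, 0.00603 and 0.00561). The part of T cell markers or of these genes' cell types in the Tet1 difference was not tested. In bulk RNA, fewer cells of a type and less RNA per cell cannot be told apart.

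Tet2 and Tet3 did not differ with genotype beyond the spread between libraries, and control 1 was the lowest library for both. Tet2, on chromosome 3, 133463677 to 133545136 (minus strand), held 23.4, 55.4, 61.1 and 43.9 CPM in the controls and 37.4, 37.1, 40.4 and 61.6 CPM in the KO-labelled libraries. Within the KO-labelled libraries, replicate 4 stood above the other 3. Its log2 fold change was -0.06 ± 0.28 (with its SE; edgeR adjusted p = 0.925), a ratio of 0.96 (95% interval 0.617 to 1.49), and it was -0.28 without control 1 (edgeR adjusted p = 0.315) and 0.45 ± 0.15 set-adjusted (edgeR adjusted p = 0.0669). Tet3, on chromosome 6, 83362373 to 83457208 (minus strand), held 75.4, 179, 160 and 161 CPM in the controls and 116, 104, 113 and 159 CPM in the KO-labelled libraries. Apart from control 1 and Ccna2-KO replicate 4, the controls lay above the KO-labelled libraries. The log2 fold change of Tet3 was -0.23 ± 0.25 (SE; edgeR adjusted p = 0.631), a ratio of 0.855 (95% interval 0.576 to 1.27), and it was 0.24 set-adjusted. Without control 1, Tet3 passed at -0.44 (edgeR adjusted p = 0.0422). Both genes were lower in the high set, with log2 differences of -0.94 for Tet2 (edgeR adjusted p = 0.00732) and -0.83 for Tet3 (edgeR adjusted p = 0.00762).

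Control 1 differed from the other controls in step with transcript length over all genes. The median log2 difference, control 1 minus the mean of controls 2 to 4, was 0.58 over 1089 genes with main transcripts of up to 1000 bases and -0.58 over 576 genes with transcripts over 8000 bases. Tet2 (9179 bases), Tet3 (10904 bases) and Dnmt3a (9685 bases) have long main transcripts, and in control 1 they stood at -1.18, -1.14 and -0.58. Tet1, the longest at 13986 bases, stood at 0.58 there. Uhrf1 (3391 bases), Hells (5868 bases) and Dnmt1 (5367 bases) stood at 1.67, 1.10 and 0.90, above the medians of 0.04 and -0.27 of their length ranges, and Dnmt3b (3956 bases) at 0.24. Between the groups, the median log2 fold change was between -0.03 and 0.01 in all 5 length ranges. The part of transcript length in the values of control 1 was not tested.

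**Figure D4:**
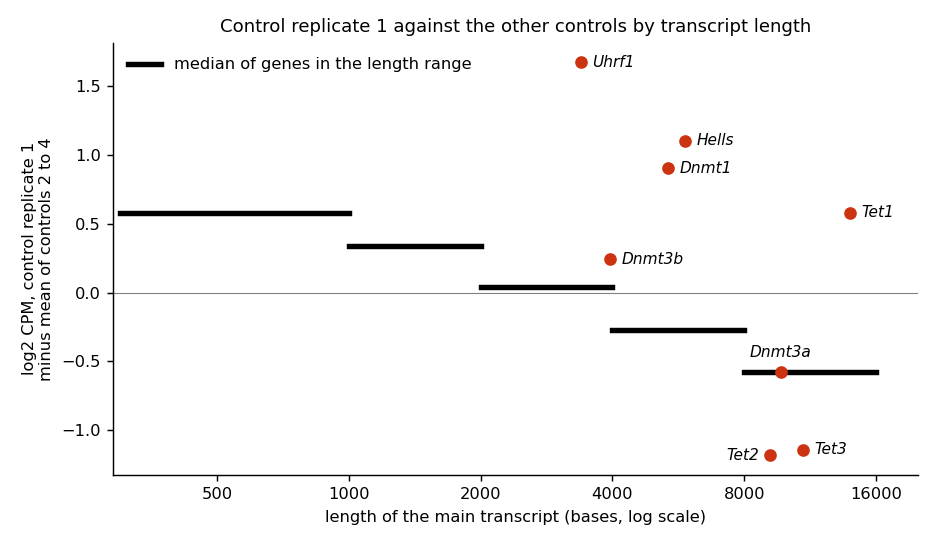
Log2 CPM in control replicate 1 minus the mean of controls 2 to 4, against the length of each gene's main transcript in bases (log axis), with black lines for the median of all genes in 5 length ranges and points for the 8 genes. The medians run from 0.58 for the shortest to -0.58 for the longest transcripts, with Tet2 and Tet3 below and Uhrf1, Hells, Dnmt1 and Tet1 above the line of their range.

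Levels of different genes can be compared only per length, as counts per kilobase of transcript scaled to 1 common total (TPM) over transcripts with a known length. In the controls the order was Tet3 (27.2 ± 8.04 TPM), Dnmt1 (16.8 ± 4.68), Uhrf1 (11.6 ± 8.83), Dnmt3a (11.1 ± 2.43), Tet2 (4.93 ± 2.77), Hells (3.75 ± 1.68), Dnmt3b (1.25 ± 0.439) and Tet1 (0.154 ± 0.03, SD, n = 4 each). Ranges over the 4 controls overlapped between neighbours in this order except below Dnmt3a (8.42 to 13.7 against 0.827 to 6.85 TPM for Tet2), below Hells (2.42 to 6.2 TPM) and below Dnmt3b (0.833 to 1.79 TPM). In the KO-labelled libraries the order began with Uhrf1 (29.8 ± 9.8 TPM), Dnmt1 (27.6 ± 6.23) and Tet3 (23.3 ± 3.59), whose ranges overlapped. They were followed by Dnmt3a (9.22 ± 2.05), Hells (8.15 ± 2.05), Tet2 (5.84 ± 0.868), Dnmt3b (1.8 ± 0.5) and Tet1 (0.0404 ± 0.0204). Lengths were known for 43.2% of the Tet2 counts, so its level is a part of the gene. The place of Tet2 in both orders and its gap below Dnmt3a therefore do not describe the whole gene. In CPM, Tet2 and Dnmt3a held 46 and 44.8 in the controls, with main transcripts of 9179 and 9685 bases. Lengths were known for 63.6% to 97.6% of the counts of the other 7 genes.

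The table lists 59 transcripts of the 8 genes, of which 42 held at least 10 counts over all libraries. The 33 that passed the filter gave 0 calls in edgeR's test (4 with an unadjusted p under 0.05), at a share of 0.93% called over 38384 transcripts, and up to 4 higher and 1 lower without control 1. Among the 6 genes with enough counts in every library, the share of the main transcript was tested, and none passed. The main Hells transcript held 71.7%, 62.2%, 66.9% and 65.1% of the gene in the controls and 74.9%, 71%, 73.3% and 73.8% in the KO-labelled libraries, so the groups overlapped only through control 1 (exact permutation p = 0.0571, adjusted 0.343). Of the 5 transcripts listed for Dnmt3a, the main one, of 9685 bases, held 23.2%, 69.9%, 79% and 96.2% of the gene in the controls and 48.6%, 78.7%, 96.3% and 75.8% in the KO-labelled libraries. A shorter transcript of 5424 bases held 40.9% in control 1 and between 0 and 6.49% in the other 7 libraries. An 8737-base transcript held 24.5% in control 1 and 7.82% in Ccna2-KO replicate 2, and a predicted one without a known length held 42.4% in Ccna2-KO replicate 1 and 28.4% in control 2. These are shares of single transcripts, so they do not give the share of a protein form. Kallisto shares reads among overlapping transcripts by estimate, so such shares carry more error than gene sums.

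Likeness of profiles was described as the root mean square difference of log2 CPM over the 8 libraries, after each gene was centred on its mean, over 10990 genes. These were the genes with a mean log2 CPM of at least 1 and a symbol that is not a clone name. Among the 8 genes themselves Tet2 and Tet3 were closest (0.16), followed by Dnmt1 and Hells (0.21), and Uhrf1 and Tet1 were farthest apart (1.76). Outside the set, the closest profiles to Uhrf1 were Ankle1 (0.13), Gins1 (0.14) and Ncaph (0.14), where the median gene differed by 1.0. The closest to Hells were Nup85 (0.10), Gstm1 (0.11) and Tubb5 (0.12), and to Dnmt1 Ran (0.07), Nop56 (0.08) and Dek (0.09). For Dnmt3a they were Csnk1e, Stx16 and Mbnl2 (0.04 to 0.05), and for Dnmt3b Gmps, Cbx1 and Pwp1 (0.04 to 0.05). Tet2 was closest to Hivep2 (0.07), Stk10 (0.10) and Kat6a (0.11), and Tet3 to Aim1l (0.05), Chd2 (0.06) and Ssfa2 (0.06). Tet1 had no profile as near among the genes searched, and its closest were the 3 genes named with it above, Chgb (0.37), Lrmp (0.37) and Sh2d6 (0.38). Tet1 itself had a mean log2 CPM of -0.98, so genes at its own level were not searched.

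Partners of the methylation enzymes were described from fixed lists, and most did not pass. Of 14 tested genes that work with the writers, 1 rose and 0 fell (median log2 fold change 0.06), and set-adjusted also 1 and 0. The gene that rose was 2810417H13Rik, now named Pclaf, which encodes the PCNA-binding protein PAF15 that helps bring DNMT1 to replicating DNA. Its level was 25.8, 7.7, 8.89 and 9 CPM in the controls and 73.7, 96, 91.9 and 50.2 CPM in the KO-labelled libraries. All 4 of the latter lay above all controls (log2 fold change 2.60 ± 0.41 SE, edgeR adjusted p = 0.00476; 2.15 set-adjusted). In the same list Pcna, the replication clamp, had a log2 fold change of 0.34 (edgeR adjusted p = 0.293), Uhrf2 -0.25 (0.236) and Usp7, the deubiquitinase that binds DNMT1 and UHRF1, -0.08 (0.734). Without control 1, 4 genes of the list were higher and 2 lower. Besides 2810417H13Rik, the higher ones were Pcna (0.57, edgeR adjusted p = 0.00592), Cdca7l (1.16, 0.00962) and Lig1, the ligase that joins new DNA fragments (1.22, 0.00216). The lower ones were Uhrf2 (-0.35, edgeR adjusted p = 0.0139) and Setd2, a histone methyltransferase (-0.32, 0.0353). Of 10 genes from the families that hold the readers of methylated CG, 0 rose and 0 fell in edgeR's test (median -0.06). Among them 4 had an unadjusted p under 0.05, and not every member of these families binds methylated CG. DESeq2 called 2 higher and 2 lower and limma voom 0, set-adjusted 2 fell, and without control 1 the counts were 3 higher and 1 lower. Mbd2 among them was 134 ± 7.62 and 114 ± 3.2 CPM, with groups that did not overlap (log2 fold change -0.23 ± 0.09 SE, edgeR adjusted p = 0.117; 0.0392 set-adjusted).

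Of 15 tested genes of demethylation and its repair, 2 rose and 1 fell in edgeR's test (median 0.10). Without control 1 the counts were 4 and 2, and set-adjusted 2 and 2, the added lower gene being Cxxc5 (-1.37, edgeR adjusted p = 0.00149). Cxxc4, whose protein IDAX binds TET2 and lowers it, rose from 0.925 to 2.19 CPM (on the log2 scale by 1.23 ± 0.26 SE, edgeR adjusted p = 0.0159). Apobec1, a cytidine deaminase best known for editing apolipoprotein B RNA, rose (0.68 ± 0.18 SE, edgeR adjusted p = 0.0414). Gadd45a, a stress-induced gene linked to active demethylation, fell from 168 to 90.1 CPM (-0.90 ± 0.19 SE, edgeR adjusted p = 0.0173). The Cxxc4 call was lost without Ccna2-KO replicate 1 (edgeR adjusted p = 0.0534) or 3 (0.0553). The Gadd45a call was lost without Ccna2-KO replicate 1 (edgeR adjusted p = 0.0581), 2 (0.0516) or 3 (0.0613). The Apobec1 call was kept without control 1 or control 3 and lost without any other library (edgeR adjusted p from 0.0704 to 0.102). Tdg, the glycosylase that removes oxidised methylcytosine, had a log2 fold change of 0.21 (edgeR adjusted p = 0.229).

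The lists for the supply of methyl donor and of the TET cosubstrate gave 1 call each in edgeR's test, also set-adjusted. Of 9 tested genes listed for methyl donor supply, Ahcyl2 rose from 749 to 1210 CPM (on the log2 scale by 0.69 ± 0.18 SE, edgeR adjusted p = 0.0385). Ahcyl2 is a homologue of adenosylhomocysteinase and is not itself established as an enzyme of the methionine cycle. The Ahcyl2 call was kept without control 1 (0.0217) and lost without any other library (edgeR adjusted p from 0.053 to 0.0861). Ahcy, the gene of adenosylhomocysteinase itself, did not pass (0.31 ± 0.19 SE, edgeR adjusted p = 0.346). Mat2a, which makes S-adenosylmethionine, held 1160 ± 492 and 738 ± 182 CPM (edgeR adjusted p = 0.26), and without control 1 it passed as lower (-0.90, edgeR adjusted p = 0.0139). DESeq2 also called Ahcyl1 higher (0.20, adjusted p = 0.0373). The TET cosubstrate list held 14 genes, which make or use 2-oxoglutarate and its competitors or transport ascorbate. Of these, Idh1, the cytosolic isocitrate dehydrogenase, rose from 150 to 313 CPM (1.06 ± 0.14 SE, edgeR adjusted p = 0.00243). The other 13 did not pass in edgeR's test, and the median of that list was 0.04. Idh2, the mitochondrial isocitrate dehydrogenase, held 113 ± 12.6 and 145 ± 8.33 CPM with groups that did not overlap (0.37 ± 0.11 SE, edgeR adjusted p = 0.0533). It passed in DESeq2 (adjusted p = 0.00671), in limma voom (0.0499), with RLE scaling (0.0496) and with a filter of 1 CPM (0.0426). Without control 1, Idh1, Idh2 and Idh3a of that list were higher (3 genes) and 0 lower.

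Genes whose expression is known to depend on DNA methylation were described from a germline and an imprinted list. The median log2 fold change was -0.32 over the 3 germline genes tested and 0.12 over the 13 imprinted genes tested. Of 21 germline genes kept silent in body cells by promoter methylation, 3 held enough counts to test and 5 had no count in any library. In edgeR's test 0 of the 3 passed and 0 had an unadjusted p under 0.05, and DESeq2 and limma voom also called 0. The summed level of the 21 was 7.6 to 13.1 CPM in the controls and 7.06 to 10.2 CPM in the KO-labelled libraries, most of it from Tdrd1 and Brdt. Of 13 tested imprinted genes, Grb10, an adaptor that restrains growth factor signalling, rose from 0.317 to 6.05 CPM (on the log2 scale by 4.23 ± 0.27 SE, edgeR adjusted p = 9.67e-05). Peg3, a zinc finger gene read from the paternal allele, fell from 1.49 to 0.308 CPM (-2.24 ± 0.32 SE, edgeR adjusted p = 0.00283). For both genes the groups did not overlap. Grb10 held 38 counts over the controls and 736 over the KO-labelled libraries, and Peg3 held 178 and 38. Each passed the filter through its higher group, so the size of either change rests on few counts in the lower group. The other 11 did not pass in edgeR's test, where 6 of the 13 had an unadjusted p under 0.05. DESeq2 also called Plagl1 higher (1.38, adjusted p = 0.00872) and Igf2 lower (-1.04, adjusted p = 0.0347), and limma voom called no more than Grb10 and Peg3. Igf2 was lower set-adjusted too (-1.29, edgeR adjusted p = 0.0189). Without a filter Plagl1 and Peg10 were also higher, and without control 1 the list counted 3 higher (Grb10, Dlk1 and Meg3) and 1 lower. Methylation was not measured in these libraries.

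The S phase list gave the largest share of calls among the pathway lists. Of the 6 Mcm genes 0 passed in edgeR's test (median 0.84), 4 had an unadjusted p under 0.05, DESeq2 called 1 and limma voom 0, and all 6 were higher without control 1 and 0 set-adjusted. Of 16 S phase genes 9 rose and 0 fell (median 1.23), among them Rrm2, a subunit of ribonucleotide reductase (2.85 ± 0.36 SE, edgeR adjusted p = 0.00184), and Ccne1, cyclin E1 (2.11 ± 0.35 SE, edgeR adjusted p = 0.00563). Set-adjusted 9 were higher, without control 1 all 16 were, and without control 2 the count was 5, while it was 4 without control 3, control 4, Ccna2-KO replicate 2 or Ccna2-KO replicate 3. These lists were chosen with earlier results of these data known, so their counts are not independent evidence of a direction.

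**Figure D5:**
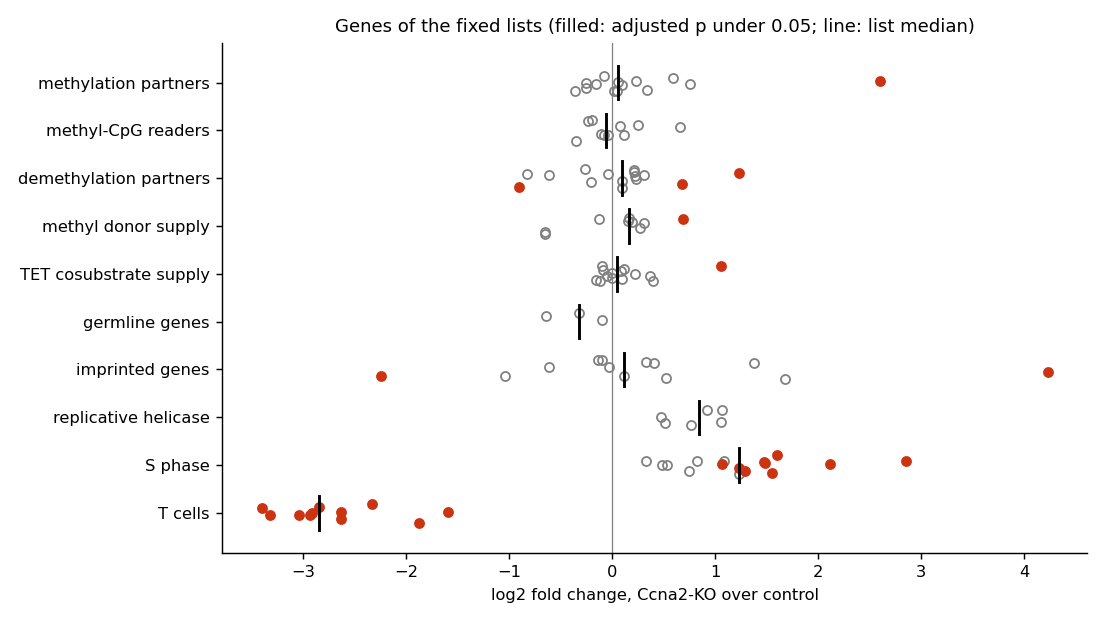
Log2 fold change, Ccna2-KO over control, of each tested gene of 10 fixed lists, filled where the edgeR adjusted p is under 0.05, with a line at each list's median and points offset vertically only for legibility. Filled points number 0 to 3 in the methylation lists, 9 of 16 in the S phase list and 11 of 11 in the T cell list.

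The epithelial label matched its markers: the 11 epithelial genes summed to between 39000 and 43000 CPM in the controls and between 43700 and 48100 CPM in the KO-labelled libraries, and 0 of 11 passed in edgeR's test, where 2 had an unadjusted p under 0.05, DESeq2 called 2 higher and limma voom 0. Markers of other cells were low. Macrophage markers summed to 22 to 37.1 and 20.6 to 28.6 CPM with 1 of 8 higher (Cd68, edgeR adjusted p = 0.0313). The median log2 fold change of these 8 was -0.36. Set-adjusted, Cd68 did not pass (0.91, edgeR adjusted p = 0.0601) and Cd14 was lower (-1.06, edgeR adjusted p = 0.00288). Fibroblast and muscle markers summed to 6.9 to 14 and 10.5 to 31 CPM with 1 of 5 tested higher (Des). B cell markers summed to at most 2.12 CPM, and of the 2 tested 0 passed or had an unadjusted p under 0.05 in edgeR's test, and 0 were called by DESeq2 or limma voom. Endothelial markers summed to 2.67 to 4.7 and 2.19 to 2.94 CPM with 1 of 2 tested lower (Pecam1, edgeR adjusted p = 0.0315), and Cdh5, a defining marker, was at 0 in 5 of the 8 libraries. The Cd68 call was lost without controls 2, 3 or 4 or Ccna2-KO replicates 2 or 3 (edgeR adjusted p from 0.0517 to 0.0889), and the Pecam1 call without control 3 or any KO-labelled library (0.0651 to 0.0956). The part of these markers in the results above was not tested.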

How the data were processed

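The deposited table holds the authors' estimated counts per RefSeq transcript for 8 libraries. The submitters' processing notes name kallisto and the build GRCm38 (mm10). The kallisto version and strandedness were not given in the sources used here. Of 107193 transcripts, 687 without a symbol (3.19% to 5.51% of the counts) were left out. Counts were summed per symbol and rounded. No library repeated the counts of another.

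Genotype was tested with edgeR 4.0.16 in R 4.3.3 (robust quasi-likelihood test, TMM factors, filterByExpr with its defaults, 4 libraries against 4, no covariate), with Benjamini-Hochberg adjustment over 15893 genes and a threshold of 0.05. Unless another test is named, an adjusted p is from this test. Log2 CPM used a prior count of 2. The script was tested on simulated data. Single values were compared by an exact two-sided permutation test. Intervals are 95% intervals of the fitted fold change.

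Alternatives were scaling by RLE or upper quartile, no filter, at least 1 CPM in 4 libraries, DESeq2 1.42.0, limma 3.58.1 voom, replicate number as a block, the library number set as a covariate, each library left out, a prior count of 0.5 and a length reduced by 200 bases. The members and lists were chosen with earlier results of these data known. Ccna2 and the 8 genes were named whatever their values. In each list, up to 4 passing genes with the smallest adjusted p were named, or up to 2 of the highest level where none passed, with the 3 nearest profiles per gene. Further genes (Pcna, Uhrf2, Usp7, Tdg, Ahcy, Mat2a, Cdh5 and those called only in an alternative) were named after their values were seen. Lengths are from GENCODE M21 and promoters and gene positions from RefSeq.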

Additional observations from a re-analysis of the deposited data

Results flagged for a closer look

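In 98 groups of 4 values, 1 library stood apart from the other 3 in 14, where chance alone gives about 1 in 20. The groups are not independent, as they share libraries and genes that vary together, so the count is not a test against chance. Control 1 was the library in 8 of the 14. It held 59.1 CPM of Dnmt1 (31 to 32.7 in the other controls), 36.6 CPM of Uhrf1 (10.4 to 12.6) and 25.8 CPM of 2810417H13Rik (7.7 to 9). It also held 54 CPM of Mcm7 (18.2 to 21.5), 68.5 CPM of Mcm6 (from 14.3 in the other controls), 18.7 CPM of Rrm2 (6.94 to 7.42) and 164 CPM of Idh1 (145 to 147), and less Ahcyl2, 557 CPM (798 to 833).

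Ccna2-KO replicate 4 stood apart in 4. It held 61.6 CPM of Tet2 (37.1 to 40.4 in the rest of its group) and 91.8 CPM of Mbd6 (71.1 to 74.6). Its log2 difference of Uhrf1 minus Dnmt1 was -0.82 (-0.35 to -0.27), and 69% of its Dnmt1 counts lay in the main transcript (55.4% to 57.7%). Ccna2-KO replicate 1 stood apart for Jchain, 1.01 CPM (0.343 to 0.431), and Pecam1, 1.48 CPM (1.25 to 1.26).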

How the results depend on the processing

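Tet1 was lower in every alternative that tested it, with a log2 fold change of -2.08 to -1.49 and adjusted p from 0.00283 to 0.0775. At least 1 CPM in 4 libraries left Tet1 untested and 0 of the 8 genes lower. DESeq2 called 2949 genes (18.6%), 1431 lower, 3 of the 8 higher (Dnmt1 0.68, Uhrf1 1.40, Hells 1.0) and 5 list genes lower, and limma voom (12.1% of genes) called 2 of the 8 higher (Uhrf1 1.55, Hells 1.06). With the number set as a covariate, 2892 genes (1415 lower), 2 of the 8 higher (Uhrf1 0.86, Hells 0.57) and 6 list genes lower passed, and signs turned for Dnmt3a (0.10), Dnmt3b (-0.07), Tet2 (0.45), Tet3 (0.24), Mbd6 (0.04), Tdrd1 (0.02) and Mcm6 (-0.09).

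Replicate numbers did not pair the libraries (correlations of same-numbered deviations -0.07, -0.35, -0.26 and 0.15). With the replicate block 987 genes (6.21%) passed, 619 higher and 368 lower, Tet1 was -1.83 with adjusted p = 0.0622 and 0 of the 8 were lower, 4 of 11 T cell markers were lower, 0 genes of the methyl donor and demethylation lists were higher, and Jchain turned to -0.02.

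Leaving out single libraries gave 972 to 4627 genes (6.05% to 28.5%), 572 to 2457 higher and 400 to 2170 lower, 0 to 3 of the 8 higher and 0 to 2 lower, 7 to 40 list genes higher and 1 to 7 lower, and 0 to 4 transcripts of the 8 genes higher and 0 to 1 lower. The highest counts came without control 1. Log2 fold changes ranged from 0.57 to 0.96 (Dnmt1), 1.21 to 2.02 (Uhrf1), 0.85 to 1.35 (Hells), -0.28 to 0.11 (Tet2) and -0.44 to -0.11 (Tet3). Ratios ranged from 0.73 to 1.02 (Uhrf1 minus Dnmt1), -0.46 to -0.18 (Dnmt1 minus Mcm), 0.53 to 0.63 (Uhrf1 minus Mcm) and -0.08 to 0.14 (Hells minus Mcm). Signs turned for Ccna2 (-0.58 to 0.24), Tdrd1 (-0.23 to 0.24), Krt8 (-0.04 to 0.14), Jchain (-0.41 to 0.22) and Ms4a1 (-0.23 to 0.12). The cause was not tested. Of the other named genes' 475 values, 422 kept direction and call, 36 lost their call, 6 gained one and 11 turned, and 2 levels per length moved with the shortened length. Tet1 rests on 3 to 33 counts per library.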
